A study of Mus musculus with 70 samples.

Results

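The expression of 8 genes of danger signal supply and sensing was examined in melanomas of mice after histotripsy: Hmgb1, Panx1, P2rx4, P2rx7, Entpd1, Nt5e, Adora2a and Adora2b. The genes were chosen by symbol, for their place in the HMGB1 and extracellular ATP to adenosine route, and make up 8 of the 55487 gene lines in each of 4 count tables. All 8 had a line in every table. The question was how their messages were distributed between leukocytes and the remaining cells of the tumor, and whether they differed by treatment, between control tumors and the histotripsy-treated or histotripsy-abscopal ones.

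The tumors were grown from B16F10, a mouse melanoma cell line, on both flanks of C57BL/6 mice of either sex, 6 to 8 weeks of age. Histotripsy breaks tissue mechanically with focused ultrasound, and here it ablated most, but not all, of the tumor on 1 flank. Control tumors received a sham ablation, histotripsy-treated tumors were those ablated in part, and histotripsy-abscopal tumors were the untouched tumors on the opposite flank of ablated mice. None of the groups received a drug or carried an engineered allele, and mice were not randomized. On days 3 and 7 after ablation the tumors were dissociated and sorted by flow into CD45+ and CD45- cells, CD45 (Ptprc) being a surface protein of leukocytes. CD45- cells gave 4 control, 7 histotripsy-treated and 7 histotripsy-abscopal libraries on day 3 and 11, 3 and 4 on day 7. CD45+ cells gave 4, 6 and 7 libraries on day 3 and 10, 3 and 4 on day 7. Because ablation was partial and spared cells enter the same sort, a library of a histotripsy-treated tumor mixes cells from inside and outside the ablated zone. The sample descriptions do not say which libraries share a mouse, so the p-values measure the spread between these 70 libraries, which may in part be technical.

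HMGB1 is a chromatin protein of the nucleus that acts as a danger signal once it leaves a stressed or dying cell, and it is then sensed by receptors that include RAGE and the Toll-like receptors TLR2 and TLR4. ATP is a second such signal. It can leave living cells through pannexin 1 channels (Panx1) and opens the ion channels P2X4 (P2rx4) and P2X7 (P2rx7), and P2X7 is known for its part in inflammasome activation in macrophages. The ectoenzymes CD39 (Entpd1) and CD73 (Nt5e) act in sequence at the cell surface, CD39 taking ATP and ADP to AMP and CD73 taking AMP to adenosine. Adenosine is then sensed by the receptors encoded by Adora2a and Adora2b, which dampen many leukocyte responses. Release of HMGB1 and ATP, enzyme activity and receptor signaling take place at the level of protein and metabolite, and none of them was measured here.

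RNA was measured by QuantSeq, which reads the 3′ end of polyadenylated transcripts, so each count stands for a molecule and not for a stretch of its length. Levels below are given as CPM, counts over the library total brought to a common size, with TMM factors computed over all libraries. Levels are compared for a gene across libraries and never between genes. Depth was 887798 to 3820705 counts per library. Ptprc had 0 to 3 counts in CD45- libraries and 929 to 2916 in CD45+ libraries. The summed level of 7 melanoma markers was 22305 to 34659 CPM in CD45- libraries and 101 to 2624 CPM in CD45+ libraries. Its highest CD45+ values, 2624 and 1341 CPM, were in replicates 4 and 1 of the histotripsy-abscopal group on day 3. Replicate 3 of the CD45+ histotripsy-treated group on day 3 stood apart as well, with the lowest TMM factor (0.667). It had 40379 CPM for 7 neutrophil markers summed and 10980.1 CPM for 4 erythroid markers summed. Differences by treatment that rest on it are given with and without it.

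The genes for both ectoenzymes and both adenosine receptors were read almost entirely from CD45+ cells on both days, whereas the genes for HMGB1, pannexin 1 and the P2X receptors were read from both fractions. In a fit of both fractions on day 3, with the 3 treatments weighted equally, Panx1, P2rx4 and P2rx7 passed the test as higher in CD45+ cells and Hmgb1 did not pass. Of the 12392 genes tested, 83.7% passed in either direction and 43.1% as higher in CD45+ cells, so passing this test sets no gene apart. On day 7 the same 3 genes were higher in CD45+ cells and Hmgb1 was lower there, against a background of 82.8% called in either direction and 42.2% as higher. The other 4 genes had too few counts to be tested within CD45- cells and entered these fits through CD45+ libraries, so their levels are given as a description with no test.

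Entpd1 ranged from 70.5 to 283 CPM in the 17 CD45+ libraries of day 3, with a median of 92.8, and had at most 3 counts in each of the 18 CD45- libraries of that day. Summed over libraries, this was 2665 counts against 15, or 103 CPM against 0.31, a ratio of 329. On day 7 the sums were 2585 and 25 counts, a ratio of 180.0. Of those 25 counts, 11 lay in 1 library, replicate 1 of the histotripsy-abscopal group. That library also had the highest summed level of 5 endothelial markers among CD45- libraries, 102 CPM, and 2265 CPM of 6 fibroblast markers, and the part of these cells in its Entpd1 count was not tested.

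Nt5e, the next enzyme in the sequence, was at 33.3 CPM in CD45+ and 0.54 CPM in CD45- cells when libraries of day 3 were summed, a ratio of 61.5, and the ratio on day 7 was 102. Its counts per CD45- library were 0 to 5. Adora2a stood at 57.3 against 0.46 CPM on day 3, a ratio of 125, and the ratio on day 7 was 87.3, with 0 to 4 counts per CD45- library. Adora2b had the smallest gap of these genes, 30.5 against 1.31 CPM on day 3 and 22.9 against 0.94 CPM on day 7, or ratios of 23.3 and 24.2. For all 4 genes the lowest CD45+ library lay above the highest CD45- library on both days. The share of all genes that separate the fractions in this way was not counted, so the separation sets none of the 4 apart. CD45- counts this low carry wide counting error, so these ratios are known in order of size more than in their digits.

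**Figure D1:**
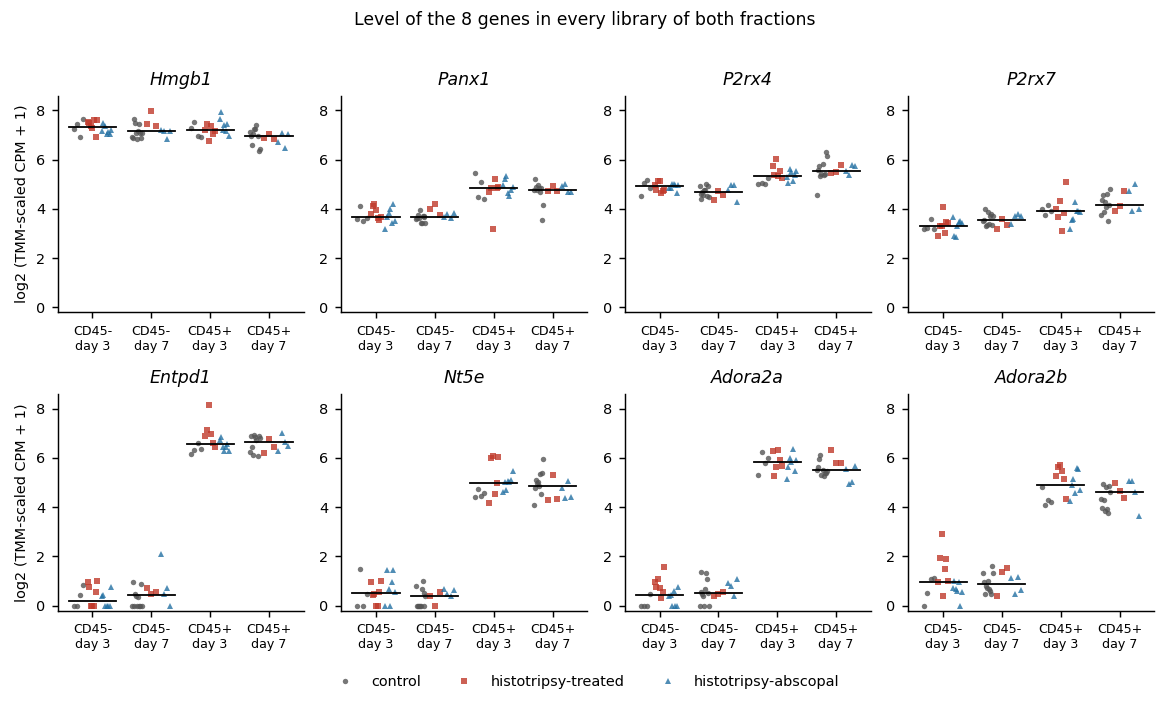
Level of each of the 8 genes in all 70 libraries as log2(CPM + 1) with TMM scaling, by fraction and day, with a point for each library, treatments by colour and marker shape, and a black bar at the median. Entpd1, Nt5e, Adora2a and Adora2b separate the fractions completely, with CD45- points near 0, whereas the fractions overlap for Hmgb1, Panx1, P2rx4 and P2rx7.

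The sources of signal and the ATP-gated channels lay closer between the fractions. Ratios here are of levels with libraries summed, and the log2 values beside them come from the fits with treatments weighted equally. Panx1 was higher in CD45+ cells, with ratios of 2.23 on day 3 (log2 1.14, SE 0.14) and 2.12 on day 7 (log2 1.01, SE 0.11). P2rx7 was higher by ratios of 1.55 and 1.77 (log2 0.66, SE 0.15, and 0.84, SE 0.13), and its level over all CD45- libraries was 6.34 to 16.1 CPM from 12 to 50 counts. P2rx4 was higher by ratios of 1.36 and 1.95 (log2 0.43, SE 0.08, and 0.93, SE 0.12), but scaled by library totals its day 3 difference was 0.14 (adjusted p = 0.101). These genes passed the edgeR quasi-likelihood test on both days, while single libraries of the fractions overlapped for each of them. P2rx7 and P2rx4 are neighbours on chromosome 5, with 16111 bases between the end of the former and the start of the latter on the plus strand.

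Hmgb1 was read at similar depth from both fractions. It ranged from 120.4 to 201 CPM in CD45- and from 107 to 241 CPM in CD45+ libraries on day 3, and the fitted difference was -0.06 (SE 0.09, edgeR quasi-likelihood adjusted p = 0.512). On day 7 it was lower in CD45+ cells, with overlapping libraries. The ratio of levels with libraries summed was 0.81, and the fitted difference was -0.42 (SE 0.11, edgeR quasi-likelihood adjusted p = 0.000434). The day 3 value depended on scaling, and with library totals it was -0.34 (adjusted p = 0.000708), where that scaling moved the median of all genes to -0.25 on day 3 and -0.20 on day 7. Hmgb1 has processed copies in the genome, and 10 such lines took 0.388% to 2.9% of the counts of Hmgb1 and its copies in CD45- libraries and 2.68% to 22.5% in CD45+ libraries, so its level carries an uncertainty from read assignment that differs between the fractions. Its locus (chr5:149046702-149184489 of GRCm38, minus strand, GENCODE annotation) also overlaps 2 other genes on its own strand and 5 on the other, and the strand setting of the counting is not given in the sources used here.

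The stretches of 250 bases before a RefSeq start site (GRCm38.p6) are shown for 3 genes that stood for the 3 patterns above, expression in both fractions (Hmgb1, its second listed start, chr5:149051617-149051866, minus strand), in CD45+ cells almost alone, with no call by treatment (Entpd1, its second listed start, chr19:40659520-40659769, plus strand), and in CD45+ cells with a call by treatment (Adora2b, chr11:62248734-62248983, plus strand). None of these windows holds a base of an annotated GENCODE exon. They are written 5′ to 3′ on the strand of the gene, with capitals for matches to 4 short motifs searched on both strands: ACGTG (the core of hypoxia response elements), TGACTCA (AP-1), GGGCGG (GC box) and CCAAT.
Hmgb1: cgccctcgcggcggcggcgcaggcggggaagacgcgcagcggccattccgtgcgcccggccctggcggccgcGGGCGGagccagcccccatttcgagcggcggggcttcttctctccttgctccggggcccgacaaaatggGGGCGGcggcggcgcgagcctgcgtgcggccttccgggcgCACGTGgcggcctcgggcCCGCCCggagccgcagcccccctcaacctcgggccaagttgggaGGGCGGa
Entpd1: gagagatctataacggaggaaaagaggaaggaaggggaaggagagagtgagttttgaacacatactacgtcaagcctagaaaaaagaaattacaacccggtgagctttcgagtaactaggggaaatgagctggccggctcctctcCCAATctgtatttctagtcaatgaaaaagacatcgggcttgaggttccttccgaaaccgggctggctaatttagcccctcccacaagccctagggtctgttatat
Adora2b: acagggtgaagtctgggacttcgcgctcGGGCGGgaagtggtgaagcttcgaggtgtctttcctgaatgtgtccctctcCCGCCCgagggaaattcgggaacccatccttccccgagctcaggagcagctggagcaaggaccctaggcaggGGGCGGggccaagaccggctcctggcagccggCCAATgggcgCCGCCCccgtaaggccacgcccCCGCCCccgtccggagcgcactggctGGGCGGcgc

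The Hmgb1 window was 78.8% G and C and held 4 GC boxes and 1 palindrome that matches ACGTG on both strands. The window of the other listed Hmgb1 start, of which 47 bases lie in annotated exons, was 63.6% G and C. It held 3 CCAAT, 1 ACGTG and 0 GC boxes. The Adora2b window was 69.6% G and C and held 6 GC boxes and 1 CCAAT. The Entpd1 window was 47.2% G and C, below the median of 52.4% over 32851 promoter windows, and held 1 CCAAT and none of the other motifs. The window of the other listed Entpd1 start, of which 118 bases lie in annotated exons, was 62.4% G and C and held 2 CCAAT, so these features depend on the start chosen. Among those windows 32.7% held GGGCGG, 33.8% CCAAT, 16.6% ACGTG and 4.46% TGACTCA, so each match is common by itself. RefSeq windows were matched by symbol for 7 of the 8 genes, and Adora2a is named only. A match is a run of letters and was not tested for binding.

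In CD45+ cells on day 3, the adenosine receptor gene Adora2b was higher in histotripsy-treated than in control tumors, by 0.99 on the log2 scale, and was the only 1 of the 8 genes to pass the test, where 7.8% of the 10264 genes tested passed in either direction and 6.22% as higher. The genes for both ectoenzymes and for P2X4 had higher means in histotripsy-treated tumors but did not pass. The genes for HMGB1, pannexin 1, P2X7 and the receptor of Adora2a had log2 differences between -0.16 and 0.18. With scaling by library totals the split of genes called over the whole table turned from 638 higher and 163 lower to 414 higher and 663 lower, with a median shift of all genes of -0.22 on the log2 scale.

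Adora2b was at 27.2, 16.1, 18.8 and 17.3 CPM in the 4 control libraries and at 37.8, 47.9, 50.9, 43.0, 34.3 and 19.2 CPM in the 6 histotripsy-treated libraries. All but the last of the histotripsy-treated libraries lay above every control library. The means were 19.8 ± 5.02 (SD, n = 4) and 38.9 ± 11.4 CPM (SD, n = 6), from 24 to 61 counts per histotripsy-treated library (log2 0.99, SE 0.29, edgeR quasi-likelihood adjusted p = 0.0389). Its p ranked 677 among all genes tested. Leaving out 1 library at a time kept the difference between 0.91 and 1.16, but the adjusted p ran from 0.0197 to 0.132 and stayed under the threshold in 3 of 10 such fits, those without control replicate 1 or histotripsy-treated replicate 5 or 6. Without replicate 3 it was 0.91 (adjusted p = 0.0796), with library totals 0.76 (adjusted p = 0.0828), and with the replicate number as a block 0.95 (adjusted p = 0.0616).

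Entpd1 was at 70.5, 78.7, 96.5 and 80.9 CPM in control and at 117, 139, 283, 124, 95.9 and 86.5 CPM in histotripsy-treated libraries. Replicate 3 was far above the rest, and the lower 2 histotripsy-treated libraries lay within the control range. The fitted difference was 0.78 (SE 0.25, edgeR quasi-likelihood adjusted p = 0.0551), and 0.46 (adjusted p = 0.106) without replicate 3. It passed with DESeq2 (0.79, adjusted p = 0.0314), with no filter on low counts (0.70, adjusted p = 0.0156) and with the replicate number as a block (0.84, adjusted p = 0.0176). It also passed in 2 of 10 fits with a library left out, those without replicate 5 or 6.

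Nt5e was at 20.1, 25.9, 20.8 and 22.9 CPM in control and at 17.0, 62.9, 66.3, 22.3, 30.8 and 64.1 CPM in histotripsy-treated libraries. The latter fell into 3 libraries above 62 CPM and 3 between 17.0 and 30.8 CPM, among them the lowest library of both groups. The difference was 0.96 (SE 0.31, adjusted p = 0.0641), 0.81 (adjusted p = 0.137) without replicate 3 and 0.97 (adjusted p = 0.0347) with DESeq2, and it passed in the 3 of 10 fits that left out histotripsy-treated replicate 1, 4 or 5. The 3 libraries with the most Nt5e, replicates 2, 3 and 6, were not the 3 with the most Entpd1, which were replicates 2, 3 and 4. Over all 34 CD45+ libraries, after removal of group means, the log2 levels of the enzyme genes correlated at r = 0.32, with libraries and scaling shared between them.

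P2rx4 was at 31.2, 32.2, 31.5 and 37.2 CPM in control and at 51.9, 40.9, 64.5, 40.0, 45.5 and 36.8 CPM in histotripsy-treated libraries, where only the lowest of the latter overlapped with the highest control. The difference of 0.48 (SE 0.17, edgeR quasi-likelihood adjusted p = 0.089) did not pass, nor did it in any of the 10 fits that left out a library, and it was 0.25 with library totals. P2rx7 had means of 14.7 ± 1.71 and 16.6 ± 8.78 CPM (SD, n = 4 and 6), and its histotripsy-treated libraries, from 7.68 to 32.8 CPM, spanned the whole control range (log2 0.18, adjusted p = 0.76).

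**Figure D2:**
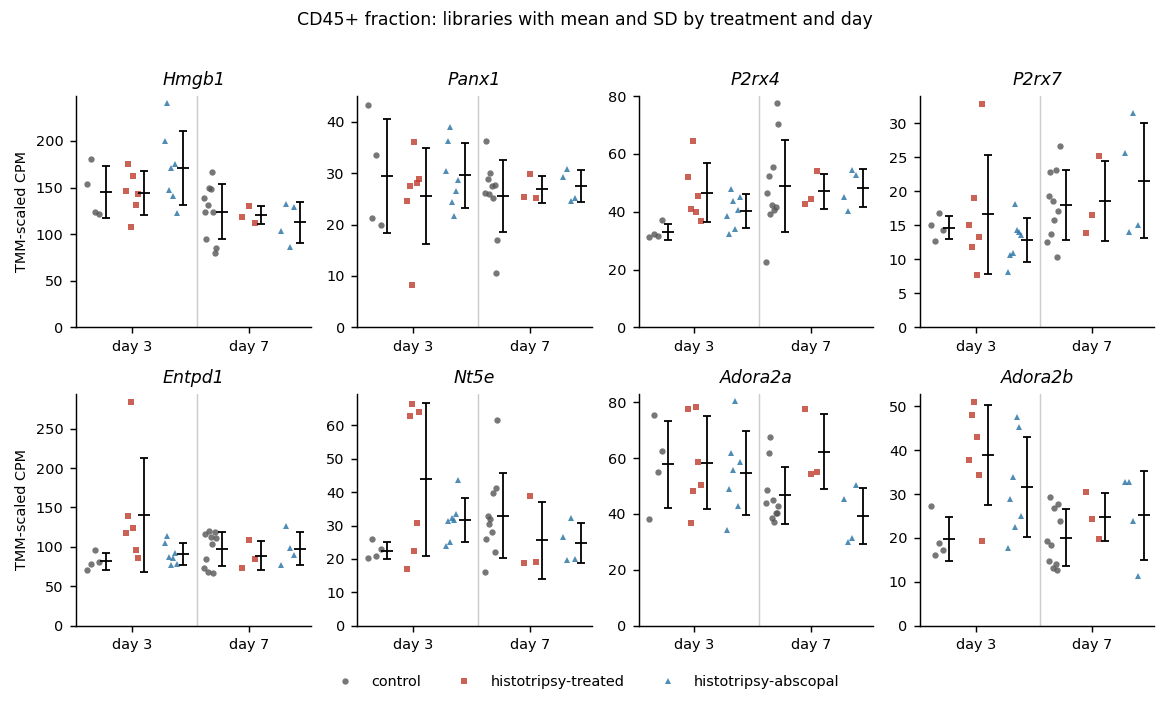
Level in CD45+ cells (CPM, TMM-scaled) of each of the 8 genes by day and treatment, with a point for each library and the mean ± SD. On day 3 the histotripsy-treated means of Adora2b (38.9 CPM), Nt5e (43.9 CPM) and Entpd1 (141 CPM) lie above the control means (19.8, 22.4 and 81.7 CPM), and on day 7 the groups of these 3 genes overlap.

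The supply genes and Adora2a had similar means in both groups and did not pass the test. Hmgb1 averaged 145 ± 28.1 CPM in control and 144 ± 23.9 CPM in histotripsy-treated libraries (SD, n = 4 and 6), a log2 difference of -0.01 (SE 0.19). Panx1 averaged 29.5 ± 11.05 and 25.5 ± 9.33 CPM, and its histotripsy-treated libraries ran from 8.18 CPM in replicate 3 to 36.1 CPM. Adora2a, the other adenosine receptor gene, averaged 57.8 ± 15.5 and 58.4 ± 16.7 CPM with overlapping libraries, a log2 difference of -0.00 (SE 0.23). A test of the difference in response between Adora2a and Adora2b was not made.

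Leukocyte markers differed between the same libraries. The summed level of 7 neutrophil markers was 370.5 to 2865 CPM in control, 1426 to 40379 CPM in histotripsy-treated and 884 to 2971 CPM in histotripsy-abscopal libraries on day 3, with all 7 markers read in each group. The summed level of 7 T cell markers was 1392 to 1854 CPM in control and 424 to 1244 CPM in histotripsy-treated libraries, and that of 7 monocyte and macrophage markers was 1352 to 1614 and 869 to 1790.4 CPM. In RNA from sorted cells in bulk, fewer cells of a type and less RNA per cell cannot be told apart. Over the 34 CD45+ libraries, with group means removed, the log2 level of Nt5e correlated with the neutrophil score, the mean log2 level of the 6 of those markers with enough counts on both days, at r = 0.63, that of Entpd1 at 0.60, that of P2rx4 at 0.40 and that of Adora2b at 0.03. With the T cell score r was -0.41 for Nt5e, -0.35 for Entpd1, -0.58 for P2rx4 and -0.32 for Adora2b. With the score of NK cell markers it was -0.41, -0.60, -0.34 and -0.01 in that order. Panx1 ran the other way, at -0.54 with the neutrophil score and 0.68 with the T cell score. These points share libraries and scaling (Entpd1 correlated at -0.69 with the log2 TMM factor), they are a description, and the part of cell makeup in the differences by treatment was not tested. The correlations include replicate 3 and were not computed without it.

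**Figure D3:**
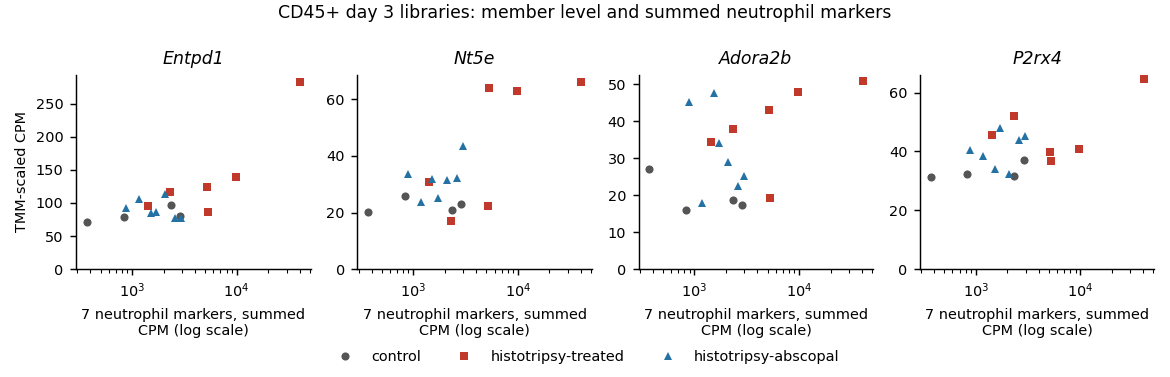
Levels of Entpd1, Nt5e, Adora2b and P2rx4 (CPM, TMM-scaled) in the CD45+ libraries of day 3 against the summed level of 7 neutrophil markers (CPM, log axis), with a point for each library, coloured by treatment. The histotripsy-treated library at the far right, at 40379 CPM of markers, also has the highest Entpd1 (283 CPM), and Adora2b varies from 17.8 to 47.7 CPM among histotripsy-abscopal libraries that all have 2971 CPM of markers or less.

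In histotripsy-abscopal tumors no gene of the whole CD45+ table passed against control on day 3 (0 of 10264 with edgeR, 0.0%, where 7.76% had an unadjusted p under 0.05 and DESeq2 called 12), and so none of the 8 genes did. Adora2b had the smallest p of the 8, with 17.8, 28.9, 34.0, 22.5, 47.7, 45.2 and 25.1 CPM in the 7 libraries against 16.1 to 27.2 CPM in control. Of the 7, 4 lay above every control library (log2 0.70, SE 0.28, unadjusted p = 0.0217, adjusted p = 0.58). Nt5e averaged 31.6 ± 6.5 CPM (SD, n = 7) against 22.4 ± 2.58, and Hmgb1 171 ± 39.6 against 145 ± 28.1, with overlap between the groups in both. The libraries with 2624 and 1341 CPM of melanoma markers, replicates 4 and 1, had Adora2b at 22.5 and 17.8 CPM, and the 11 fits that left out 1 library each gave differences of 0.55 to 0.87.

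Histotripsy-treated and histotripsy-abscopal tumors differed at 558 of 10264 genes in CD45+ cells on day 3 (5.44%, and 4.87% as higher in histotripsy-treated tumors), and none of the 8 genes was among them. Entpd1 came nearest, with a difference of 0.63 (SE 0.21, edgeR quasi-likelihood adjusted p = 0.0834) that fell to 0.31 without replicate 3. The differences of Nt5e (0.47, adjusted p = 0.352) and Adora2b (0.30, adjusted p = 0.559) did not pass. The control, histotripsy-treated and histotripsy-abscopal comparisons share libraries, so these values are not independent of those above.

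**Figure D4:**
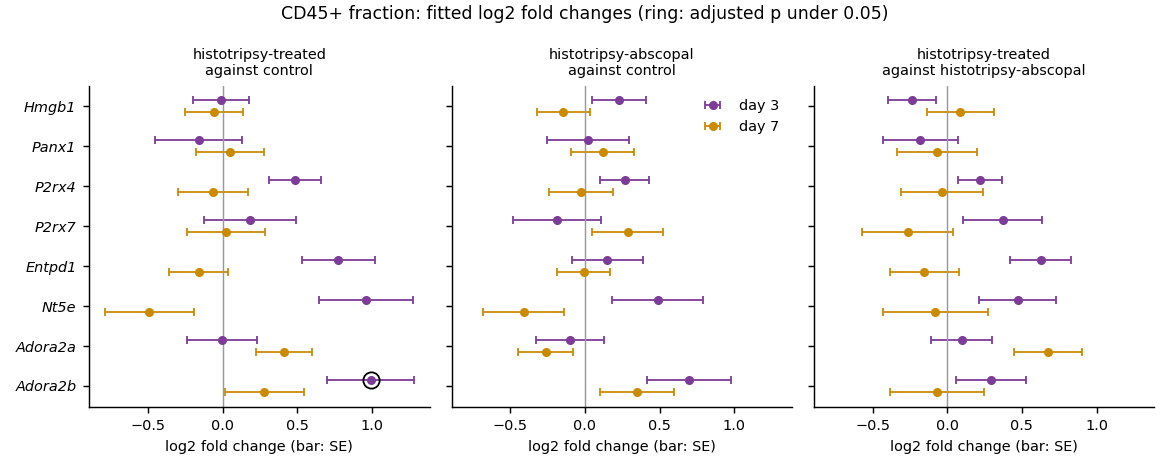
Fitted log2 difference ± SE of the 8 genes in CD45+ cells, in 3 panels for the comparisons of histotripsy-treated with control, histotripsy-abscopal with control, and histotripsy-treated with histotripsy-abscopal tumors, on day 3 (purple) and day 7 (yellow). A ring marks an adjusted p under 0.05, which Adora2b on day 3 in histotripsy-treated against control tumors alone has, at 0.99.

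On day 7 none of the 8 genes, and no gene of the 10817 tested in CD45+ cells, passed in any comparison of treatments (0.0% in each, with 3.18%, 7.4% and 2.68% of genes at an unadjusted p under 0.05 for histotripsy-treated against control, histotripsy-abscopal against control and histotripsy-treated against histotripsy-abscopal tumors, and 0 with DESeq2). Adora2b averaged 20.03 ± 6.45 CPM in control (SD, n = 10), 24.9 ± 5.46 in histotripsy-treated (n = 3) and 25.1 ± 10.1 in histotripsy-abscopal libraries (n = 4). Entpd1 averaged 97.7 ± 21.7, 89.0 ± 17.9 and 97.6 ± 21.0 CPM, and Nt5e 33.0 ± 12.6, 25.5 ± 11.4 and 24.7 ± 5.99 CPM, with overlap between all groups.

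Adora2a had the smallest p of the 8 in CD45+ cells on day 7. It was at 77.7, 54.2 and 54.9 CPM in histotripsy-treated libraries and at 45.3, 29.9, 31.5 and 50.2 CPM in histotripsy-abscopal libraries. These groups did not overlap (log2 0.68, SE 0.23, unadjusted p = 0.00675, edgeR quasi-likelihood adjusted p = 1), but the control libraries, from 37.3 to 67.6 CPM, overlapped with both. Against control the histotripsy-treated libraries differed by 0.41 (unadjusted p = 0.0366), which fell to 0.21 without replicate 1.

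Whether the effect of histotripsy in CD45+ cells differed between days was tested as an interaction, which 304 of 11251 genes passed (2.7%) and none of the 8 did. The day 7 effect less the day 3 effect was -1.42 on the log2 scale for Nt5e (SE 0.46, unadjusted p = 0.00369, edgeR quasi-likelihood adjusted p = 0.0863), and -0.91 for Entpd1 (adjusted p = 0.132). The interaction of Adora2b, the gene that passed on day 3 alone, was -0.70 (adjusted p = 0.419), so its effect is not shown to differ between the days. In control tumors alone, 1 of 11251 genes differed between days 3 and 7 in CD45+ cells (0.00889%), which was none of the 8, and P2rx4 had an unadjusted p of 0.00883 (log2 0.54, adjusted p = 0.956). In CD45- cells 0 of 11548 genes passed either test of days (0.0% in both, with 6.02% of genes for the interaction and 4.36% for control tumors at an unadjusted p under 0.05, and 13 and 1 called by DESeq2). Day and the table in which a library was deposited cannot be told apart.

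In CD45- cells, where the melanoma cells are, only Hmgb1, Panx1, P2rx4 and P2rx7 had enough counts to be tested by treatment, and none of the 4 passed on either day. On day 3 the background of called genes was 0.0916% (10 of 10921) for histotripsy-treated against control, 0.0% (5.19% unadjusted, DESeq2 13 genes) for histotripsy-abscopal against control, and 0.147% for histotripsy-treated against histotripsy-abscopal tumors. Hmgb1 was at 150.8, 174, 120.4 and 201 CPM in control and at 183, 176, 165, 153, 196, 121 and 192 CPM in histotripsy-treated libraries. These values overlapped almost fully (log2 0.07, SE 0.14, edgeR quasi-likelihood adjusted p = 0.916). Panx1 (0.15), P2rx7 (0.10) and P2rx4 (-0.03) did not pass either, with adjusted p of 0.873 or more.

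On day 7 Hmgb1 was at 174, 248 and 165 CPM in the 3 histotripsy-treated libraries and at 145, 141, 113 and 143 CPM in the 4 histotripsy-abscopal libraries, which did not overlap. The 11 control libraries, at 115 to 199 CPM with a median of 134, overlapped with both. The difference from control was 0.46 (SE 0.15, unadjusted p = 0.00526, edgeR quasi-likelihood adjusted p = 0.508), and that from histotripsy-abscopal tumors was 0.54 (unadjusted p = 0.0065, adjusted p = 0.609). Neither passed, in comparisons where edgeR called 0.0% of 10996 genes and 6.07% and 6.74% had an unadjusted p under 0.05 (DESeq2 called 0 in both). Without replicate 2, the library at 248 CPM, the difference from control was 0.25. Panx1 was at 15.003, 17.4 and 12.4 CPM against 9.79 to 14.6 CPM in control (log2 0.39, unadjusted p = 0.0169, adjusted p = 0.666). Histotripsy-abscopal against control tumors gave 32 called genes (0.291%), none of them among the 8.

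The remaining genes were low in CD45- cells. Beside the 11 counts of Entpd1 given above, Entpd1 had 0 to 3 counts per library, Nt5e 0 to 5 and Adora2a 0 to 4, and Adora2b had 1 to 5 on day 7. Adora2b had 2, 8, 17, 1, 7, 6 and 2 counts in the 7 histotripsy-treated libraries of day 3 against 0, 1, 3 and 3 in control and 0 to 3 in histotripsy-abscopal libraries, and it did not pass the filter on low counts, so it was not tested there. Its 17 counts (6.47 CPM) were in replicate 3, the CD45- library with the most fibroblast marker signal, 12642 CPM summed over 6 markers against 12.6 to 983 CPM in control libraries. The part of fibroblasts in that value was not tested. No CD45- library had more than 6.05 CPM of neutrophil markers.

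The response to histotripsy was also compared between the fractions as an interaction. On day 3, 237 of 12392 genes passed (1.91%), and of the 4 genes with enough counts in both fractions none did. Among the pathway genes described below, Dpp4 passed (log2 -5.22, SE 1.17, edgeR quasi-likelihood adjusted p = 0.0152). However, 26 of the 36 CD45- libraries held 3 of its counts or fewer, so the size of this value is uncertain. P2rx4 had a CD45+ effect larger by 0.53 (unadjusted p = 0.0168, edgeR quasi-likelihood adjusted p = 0.197). On day 7, 0 of 12863 genes passed (0.0%, with 4.84% at an unadjusted p under 0.05 and 8 called by DESeq2), and Hmgb1 had the smallest p of the 4 (log2 -0.52, unadjusted p = 0.0466, adjusted p = 1).

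The wider route was read from 5 lists with 53 genes beside the 8: danger signal supply and ATP release, HMGB1 receptors and partners, P2X and P2Y receptors, ectonucleotidases and NAD hydrolases, and adenosine receptors, transport and clearance. In CD45+ cells on day 3, 31 of the 53 were tested and 7 passed between control and histotripsy-treated tumors, 6 as higher in the latter and 1 as lower, against the background of 7.8%. With the 8 genes included, 3 of 10 tested HMGB1 receptors and partners and 3 of 7 P2X and P2Y receptors were called higher, and 0 of 9 supply genes and 0 of 5 ectonucleotidases and NAD hydrolases were called. In the adenosine list of 8 tested genes Adora2b was higher and Dpp4, the surface peptidase CD26, was lower. The median log2 difference was 0.93, 0.78, -0.01, 0.78 and -0.04 in these lists in that order, beside -0.01 over all genes tested.

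The 5 with the smallest p were all higher in histotripsy-treated tumors. Cd24a, a surface glycoprotein that binds HMGB1, averaged 758 ± 577 CPM against 186 ± 57.5 in control (SD, n = 6 and 4, log2 2.02, SE 0.41). Trem1, an amplifying receptor of neutrophils and monocytes, averaged 410.1 ± 334 against 68.5 ± 30.3 CPM (log2 2.57). Tlr2 differed by 1.17 on the log2 scale, and did not pass when only the 2 groups were fitted (adjusted p = 0.0518). Among receptors of extracellular nucleotides, P2ry2, which senses ATP and UTP, averaged 36.2 ± 13.7 against 13.1 ± 3.98 CPM (log2 1.42) and P2ry6, which senses UDP, 60.6 ± 13.7 against 32.6 ± 4.22 CPM (log2 0.90). Their adjusted p in the edgeR quasi-likelihood test lay between 0.00525 and 0.0158. P2ry13, an ADP receptor, also passed (1.65) and Dpp4 was lower (-0.78, adjusted p = 0.0494), and these were chosen after their values were seen. Dpp4 did not pass with only the 2 groups fitted (adjusted p = 0.0592) or in 9 of the 10 fits that left out a library. These were the same libraries in which neutrophil markers were higher, whose part was not tested.

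Replicate 3, the library with the most neutrophil markers, raised several of these differences. Without it Cd24a was 1.56 (edgeR quasi-likelihood adjusted p = 0.00646), Trem1 2.16, P2ry2 1.26, Tlr2 0.89, P2ry6 0.86 and P2ry13 1.46 (adjusted p = 0.0361), and these 6 still passed, while Dpp4 did not (adjusted p = 0.079). Cd24a, Trem1 and P2ry2 passed whichever of the 10 libraries was left out. Tlr2 and P2ry6 did not pass without control replicate 3 or 4, nor P2ry13 without control replicate 2 or 4 (adjusted p of 0.0509 to 0.0693).

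**Figure D5:**
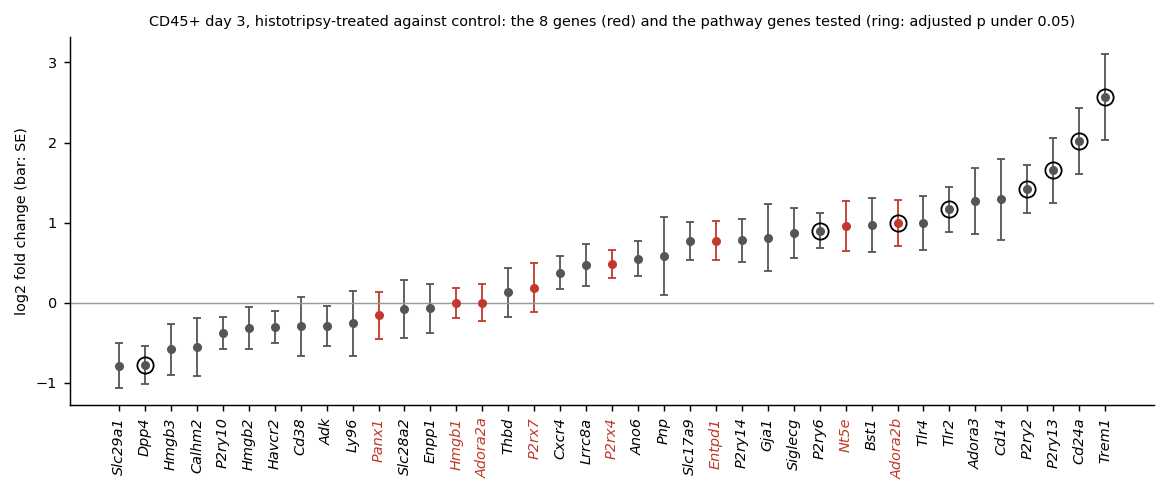
Fitted log2 difference ± SE between histotripsy-treated and control tumors in CD45+ cells on day 3 for the 31 tested pathway genes and the 8 chosen genes (red), ordered from the lowest to the highest difference, with a ring for an adjusted p under 0.05. Rings above 0 mark Trem1 (2.57), Cd24a (2.02), P2ry13 (1.65), P2ry2 (1.42), Tlr2 (1.17), Adora2b (0.99) and P2ry6 (0.90), and the ring below 0 marks Dpp4 (-0.78).

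Against histotripsy-abscopal tumors, 8 of the 31 genes passed on day 3, all higher in histotripsy-treated tumors, where 5.44% of all genes tested passed and 4.87% as higher. The 5 with the smallest p were P2ry13 (2.40), Cd24a (1.94), Trem1 (2.27), P2ry2 (1.17) and Tlr4 (1.18, edgeR quasi-likelihood adjusted p = 0.0176). P2ry6 (0.75), the next by p, is named as well. Without replicate 3, 4 of the 8 passed, namely the first 4 named. Tlr4 (adjusted p = 0.0722) and P2ry6 (0.70, adjusted p = 0.0527) did not. Tlr4 passed in the other 12 of 13 fits that left out a library. No pathway gene passed between histotripsy-abscopal and control tumors on day 3 or in any comparison of treatments in CD45+ cells on day 7. The effects on Trem1 (-2.88, SE 0.74, adjusted p = 0.0271) and Cd24a (-2.01, SE 0.55, adjusted p = 0.0409) were smaller on day 7 than on day 3 by the edgeR interaction test, but neither passed without replicate 3 of day 3 (-2.49, adjusted p = 0.0559, and -1.56, adjusted p = 0.0878). Cd24a also did not pass with library totals (-1.72, adjusted p = 0.0645) or with the replicate number as a block (-1.62, adjusted p = 0.145). Of the 23 fits that left out a library, Trem1 passed in 18 and Cd24a in 12, and for both the highest adjusted p (0.152 and 0.171) came without histotripsy-treated replicate 1 of day 7. In CD45- cells the only call was Cxcl12, a chemokine that forms a complex with HMGB1, in histotripsy-abscopal tumors on day 7 (log2 3.85, adjusted p = 0.0282). Its level there was 1.56 to 39.9 CPM against 0 to 5.52 CPM in control, and it did not pass with DESeq2 (3.74, adjusted p = 0.101), with the replicate number as a block (2.89, adjusted p = 0.593), or in 9 of 15 fits that left out a library, among them the fit without histotripsy-abscopal replicate 1 (2.97, adjusted p = 0.709). Fibroblast markers summed to 63.0 to 2265 CPM in these 4 libraries, with the highest value in replicate 1, and to 14.1 to 677 CPM in control libraries, and their part in the Cxcl12 call was not tested.

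Between the fractions the wider lists were compared only over genes with enough counts within each fraction. On day 3 these were 8 supply genes, 3 higher and 3 lower in CD45+ cells, beside 40.7% higher and 39.5% lower of 8757 genes. The 3 such P2X and P2Y receptors, the chosen pair included, were higher in CD45+ cells on both days. On day 7, 2 of 8 supply genes were higher and 4 lower there, beside 38.4% and 40.8% of 9123 genes. Most genes of the other lists had too few counts in CD45- cells, and no ectonucleotidase or NAD hydrolase was tested in both fractions on day 3.

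Ordered by group mean over the 12 groups of fraction, day and treatment, Entpd1, Nt5e, Adora2a and Adora2b had a single step at which the means ± SD of neighbouring groups did not overlap, the step from the lowest CD45+ to the highest CD45- group. All other neighbours in these orders, and every pair of neighbours for Hmgb1, Panx1, P2rx4 and P2rx7, lay within their SDs. How many of all genes have such a step was not counted. The highest group mean of Hmgb1 was 196 CPM, in CD45- cells of histotripsy-treated tumors on day 7, and the lowest 113 CPM, in CD45+ cells of histotripsy-abscopal tumors on day 7.

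For each gene the most alike genes were found by Pearson's r of log2 CPM across libraries of a fraction after removal of group means, as a description without a test. In the 34 CD45+ libraries, among 10152 genes, Entpd1 was closest to Slc16a3 (r = 0.85), a lactate transporter, with Mxi1 and Litaf next, and Nt5e to Rgcc (0.82), with Nfkbia and Cd14 next. Adora2b was closest to Arl5c (0.77), B4galt5 and Flrt3, and Adora2a to U2af2 (0.77), Klhdc2 and Atp6v1f. Hmgb1 was closest to Abcf1 (0.84), Mtrex and Mir6236, Panx1 to Abcb9 (0.81), Nkg7 and Incenp, P2rx4 to Trim25 (0.73), Neu1 and Gm44292, and P2rx7 to Capn7 (0.77), Bahd1 and Dusp1. In the 36 CD45- libraries, among 10729 genes, Hmgb1 was closest to Luc7l3 (0.79), Rabl6 and Serbp1, Panx1 to Cmc2 (0.65), Stip1 and Rasa1, P2rx4 to Grpel2 (0.64), Tbc1d2b and Tmem14c, and P2rx7 to Noc4l (0.60), Cdca4 and Trappc11. The highest r out of so many genes is large by selection, and all points share their libraries.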

How the data were processed

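Reads were trimmed (Trim Galore 0.5.0) and aligned (STAR 2.6.0) by the authors, who collapsed molecules by their identifiers with the tool of the kit's maker, counted them with featureCounts over the genes of GRCm38 and deposited raw counts, in a table for each fraction and day (tools and versions per the submitters' processing notes and the methods). Collapsing limits the effect of PCR duplicates, and reads shared by near-identical genes can be lost or misassigned. The counting strand is not given in the sources used here. An unnamed line in 2 of the 4 tables, equal to 100% of the column totals, was left out, as were 0 columns without a sample. No pair of libraries of a group agreed within sampling noise (smallest chi-square per degree of freedom 2.09).

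The genes and the pathway lists were chosen with earlier results of these data known. Groups were taken from the sample labels. Counts were tested with edgeR 4.0.16 in R 4.3.3 (TMM scaling, filterByExpr with a minimum count of 10 and a total of 15, quasi-likelihood test, Benjamini-Hochberg adjustment over all genes tested, threshold 0.05), in 1 fit per table for treatments, per day for fractions and per fraction for days, 20 comparisons in all. Each fitted 1 term per group. The steps were tested on simulated data. The alternatives tried were DESeq2 1.42.0 and its own size factors, library totals, no filter on low counts, the replicate number as a block, only the 2 groups compared, and each library left out in turn. Beside the 8 genes, the text names for each comparison at most 5 called pathway genes with the smallest p, except P2ry13, Dpp4 and P2ry6 where it says so, and for each gene the 3 most alike. Sequences and start sites came from RefSeq, positions from GENCODE. Values of 3 counts or fewer in each library were read as near the detection floor. Precision is limited by counting error at these depths, and neither sex nor batch is known for a library.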

Additional observations from a re-analysis of the deposited data

Results flagged for a closer look

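Among 56 groups of 4 to 10 libraries, 5 values of the chosen genes stood apart from the rest of their group by Dixon's criterion, where chance flags about 1 in 20 groups. Entpd1 in replicate 3 of the CD45+ histotripsy-treated tumors of day 3 was at 283 CPM, with the other 5 libraries at 86.5 to 139 CPM. P2rx4 in replicate 4 of the CD45+ control tumors of day 3 was at 37.2 CPM against 31.2 to 32.2 CPM. P2rx7 stood apart in CD45- cells of day 3 in control replicate 3, at 11.05 CPM against 8.03 to 8.44 CPM, and in histotripsy-treated replicate 4, at 16.1 CPM against 6.52 to 9.96 CPM. Hmgb1 in replicate 3 of the CD45- histotripsy-abscopal tumors of day 7 was at 113 CPM against 141 to 145 CPM.

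The effect of histotripsy differed between days for 2 pathway genes by an edgeR interaction test. In CD45+ cells, the effects on Cd24a (-2.01, SE 0.55, adjusted p = 0.0409) and Trem1 (-2.88, SE 0.74, adjusted p = 0.0271) were smaller on day 7 than on day 3. Without replicate 3 of the histotripsy-treated tumors of day 3 neither passed (adjusted p = 0.0878 and 0.0559), and Cd24a did not pass with library totals (adjusted p = 0.0645) or the replicate block (adjusted p = 0.145).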

How the results depend on the processing

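In CD45+ cells on day 3, counts of called genes for histotripsy-treated against control tumors (801) were 1244 without the filter, 1256 with the replicate block, 451 with only the 2 groups compared and 334 to 1103 with a library left out. For histotripsy-treated against histotripsy-abscopal tumors (558) they were 1022, 365 with only the 2 groups and 264 to 862. For histotripsy-abscopal against control tumors (0) they were 12 with DESeq2, 153 without the filter, 1 with the block and 0 to 1. On day 7 the 3 counts of 0 became 32, 102 and 17 without the filter.

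In CD45- cells on day 3, counts for histotripsy-treated against control tumors (10) were 49 with DESeq2, 312 without the filter, 26 with the block, 2 with only the 2 groups and 1 to 17 with a library left out. For histotripsy-abscopal against control (0) they were 13, 15, 1 and 0 to 1, and for histotripsy-treated against histotripsy-abscopal (16) 138, 451 and 117, with 25 for library totals and 0 to 99 with a library left out. On day 7 histotripsy-treated against control (0) had 165 without the filter and 0 to 26, histotripsy-abscopal against control (32) had 11 with DESeq2, 398 without the filter, 0 with the block, 62 with only the 2 groups and 1 to 132, and histotripsy-treated against histotripsy-abscopal (0) had 8 without the filter.

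The fraction interaction counts were 411 with DESeq2, 150 with the block and 81 to 427 with a library left out on day 3 (237), and 8, 41 without the filter and 0 to 10 on day 7 (0). The day interaction counts in CD45+ cells (304) were 628 without the filter, 111 with the block and 30 to 531, and in CD45- cells (0) 13 with DESeq2, 22, 1 and 0 to 1. Between control tumors of both days, counts were 0 with DESeq2 and the block, 106 without the filter and 0 to 1 in CD45+ cells (1), and 1, 8 and 0 to 1 in CD45- cells (0). The cause of these moves was not tested. Counts between the fractions stayed at 10288 to 10559 on day 3 and 10505 to 10858 on day 7 with a library left out.

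Whether same-numbered libraries belong together is not known. In no comparison did every same-numbered pair correlate above 0.1 (4 pairs of CD45+ histotripsy-treated and control libraries of day 3 had r of -0.07 to 0.26), which cannot exclude pairing. For CD45- histotripsy-treated and histotripsy-abscopal libraries, 4 of 7 pairs of day 3 lay above 0.1 (-0.07 to 0.34, median of other numbers -0.04). The 3 such pairs of day 7 had r of -0.38 to -0.17 (median of other numbers 0.09). With the replicate block, Adora2b in CD45+ cells on day 3 was 0.95 (adjusted p = 0.0616) and Entpd1 0.84 (adjusted p = 0.0176). Some differences near 0 changed sign in histotripsy-treated against control tumors on day 3. With the block, P2rx4 in CD45- cells was 0.049, and in CD45+ cells Hmgb1 was 0.050 and P2rx7 -0.048. P2rx7 was -0.045 with library totals and Adora2a 0.0041 with DESeq2. With a library left out, CD45- ranges were -0.043 to 0.20 for Hmgb1, -0.082 to 0.23 for P2rx7 and -0.13 to 0.064 for P2rx4, and CD45+ ranges were -0.10 to 0.12, -0.15 to 0.34, -0.14 to 0.15 for Adora2a and -0.34 to 0.072 for Panx1.

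Depth limits Entpd1, Nt5e, Adora2a and Adora2b in CD45- cells, where most libraries held 3 counts or fewer.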
